A study of Mus musculus with 6 samples.

Results

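The 9 genes described here encode the main line from the insulin receptor to the FOXO transcription factors: the receptor Insr, its substrates Irs1 and Irs2, the phosphoinositide 3-kinase (PI3K) subunits Pik3ca and Pik3r1, the kinases Akt1 and Akt2, and the factors Foxo1 and Foxo3. They were chosen by name, and each matched 1 row among the 53715 genes of the deposited count table. The libraries came from livers of 8-week-old males of the outbred ICR mouse stock. There were 3 libraries of the control F1 group and 3 of the group called FR F1, whose fathers' exposure is labelled "paternal famine", although the title of the series names an overdiet. The letters FR are not explained in the labels, which name no other allele or agent and do not state whether each library is a separate animal. The p-values therefore measure the spread between these samples, which may be technical. The comparison asks whether liver transcripts of the pathway differed between offspring of exposed and of control fathers.

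Insulin binding activates the receptor, a tyrosine kinase, which phosphorylates the IRS proteins. These recruit PI3K through its regulatory subunit, the lipid that PI3K makes brings AKT to the membrane, and AKT phosphorylates FOXO factors so that they leave the nucleus. In the fed liver this lowers transcription of genes for glucose production, and in fasting FOXO1 returns to the nucleus and raises them, together with Irs2 and the binding protein gene Igfbp1.

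None of the 9 genes passed the test between FR F1 and control F1 livers (quasi-likelihood test of edgeR over 13022 genes, threshold of 0.05 on the p adjusted by Benjamini and Hochberg, n = 3 per group). Pik3r1, Akt1 and Akt2 had lower values in all 3 FR F1 libraries than in any control F1 library, as had 13.2% of all tested genes. Insr and Pik3ca had higher group means in FR F1 livers, with overlapping groups, and Irs1, Irs2, Foxo1 and Foxo3 also overlapped. Of 5 ratios within libraries, 1 did not overlap between the groups, that of the PI3K subunits, beside 25.7% of single tested genes. There were 2.06 to 3.31 Pik3r1 counts for each Pik3ca count in control F1 libraries and 1.27 to 1.33 in FR F1 libraries. The exact permutation p was 0.1, the smallest possible with 3 against 3 libraries, and 0.5 adjusted over the 5 ratios.

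Promoter sequences from the RefSeq table (GRCm38.p6, 250 bases before to 50 after a transcription start) were found for 8 of the 9 genes, 13 promoters in all. They were searched on both strands for 3 motifs: the FOXO binding element GTAAACA, the insulin response sequence CAAAACAA, and the E-box CACGTG, to which the circadian clock activators and other factors bind. The 2 substrate genes are shown because both held an insulin response sequence together with an E-box. That pair was found in 0.155% of the 32851 promoters in the table. Shares of other motif pairs were not taken, and the genes were chosen for display by this pair, so the share tests nothing. Igfbp1, a standard hepatic FOXO1 target, is shown beside the substrate genes. Capitals mark the motif matches, and each sequence runs 5′ to 3′ on the strand of its gene (Irs1 chr1:82291390-82291689, minus strand; Irs2 chr8:11008880-11009179, minus strand; Igfbp1 chr11:7197537-7197836, plus strand).
Irs1: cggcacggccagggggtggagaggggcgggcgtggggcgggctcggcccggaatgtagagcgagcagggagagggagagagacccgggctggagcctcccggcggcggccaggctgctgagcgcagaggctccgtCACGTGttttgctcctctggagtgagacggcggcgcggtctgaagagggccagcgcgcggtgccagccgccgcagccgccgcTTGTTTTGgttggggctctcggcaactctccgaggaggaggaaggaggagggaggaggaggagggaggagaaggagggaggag
Irs2: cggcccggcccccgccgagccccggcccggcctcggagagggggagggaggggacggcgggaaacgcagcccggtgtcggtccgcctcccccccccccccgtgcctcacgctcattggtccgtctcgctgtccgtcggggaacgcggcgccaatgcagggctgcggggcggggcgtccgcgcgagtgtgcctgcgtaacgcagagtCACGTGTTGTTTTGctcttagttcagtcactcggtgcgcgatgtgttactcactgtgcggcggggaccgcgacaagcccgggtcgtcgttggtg
Igfbp1: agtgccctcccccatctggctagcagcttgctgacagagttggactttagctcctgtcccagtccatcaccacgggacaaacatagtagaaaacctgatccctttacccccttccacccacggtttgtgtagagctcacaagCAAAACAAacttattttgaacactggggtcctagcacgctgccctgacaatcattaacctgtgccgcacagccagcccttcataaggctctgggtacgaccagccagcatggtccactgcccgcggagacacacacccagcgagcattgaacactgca

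Distances are from the RefSeq start. For Irs2 the whole window lies upstream of the gene span given below, whose highest coordinate is 11008458. In Irs2 the E-box began 44 bases before the RefSeq start and abutted the insulin response sequence. The latter began 38 bases before that start and read on the other strand. In Irs1 the E-box lay 115 bases and the insulin response sequence 33 bases before the start, again on the other strand for the latter. In Igfbp1 the insulin response sequence began 108 bases before the start. Of all promoters in the table, 2.51% held CAAAACAA, 7.15% CACGTG and 3.65% GTAAACA. The last was matched in 1 of the 13 promoters, that of Akt1. A match says only that these letters are present.

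Library totals ranged from 2279755 to 2730160 counts, and the 9 genes had 75 to 848 counts in a library. Over all genes 0.837% were called (109 of 13022), with 7 to 651 called when 1 library was left out, the highest without control replicate 1 and the lowest without FR replicate 1. Unadjusted p was under 0.05 for 17.9%, and the groups did not overlap in 25.7% of tested genes. Defining markers of other liver cells differed in sum between the groups. The summed CPM (counts scaled to a common library size) of 11 sinusoidal endothelial markers were 425 to 682 in control F1 and 770 to 930 in FR F1 libraries, those of 9 stellate cell and fibroblast markers 306 to 514 and 657 to 814, and those of 6 B cell markers 17.1 to 37 and 57.9 to 104. Of these lists 1 stellate cell marker was called higher (Pdgfra) and 0 in the other 2, and the most abundant endothelial markers, Stab2 and Eng, had log2 fold changes of 0.05 ± 0.13 and 0.68 ± 0.23. The 7 Kupffer cell markers overlapped, at 243 to 457 and 308 to 608, as did the 5 cholangiocyte markers, at 41.2 to 139 and 70.4 to 92.8. The 7 hepatocyte markers, most abundantly Cps1 and Alb, summed to 3585 to 3962 in control F1 and 3165 to 3533 in FR F1 libraries. This was by far the highest sum of these lists. No protein-coding gene of at least 300 bp exceeded 1.16 counts per base pair of its longest transcript. Alb averaged 812 CPM over the 6 libraries, beside 549 CPM for Hnf4a, a transcription factor gene of the same list. Whether counts of the most abundant genes follow their RNA levels was not tested. The hepatocyte sums are therefore not read as amounts of hepatocyte RNA. The 4 adipocyte markers summed to at most 2.43, and no listed marker was at 0 in all libraries. In bulk tissue, fewer cells of a type and less RNA per cell cannot be told apart, and the part of these markers in the values below was not tested.

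Compared per kilobase of exon, the AKT genes were the most abundant of the 9 and the substrates the least. In control F1 livers the order by CPM per kilobase was Akt2 at 35.6 ± 3.93, Akt1 at 33.1 ± 7.4, Insr at 15.9 ± 4.01, Pik3r1 at 15.1 ± 4.52, Foxo3 at 14.6 ± 2.05, Foxo1 at 10.3 ± 1.97, Pik3ca at 6.61 ± 1.23, Irs2 at 6.05 ± 0.419 and Irs1 at 5.79 ± 1.62 (mean ± SD, n = 3). Libraries of neighbours in that order overlapped except between Akt1 and Insr, between Foxo3 and Foxo1, and between Foxo1 and Pik3ca. In FR F1 livers Foxo3, at 11.4 ± 2.88, stood above Pik3r1, at 9.39 ± 1.09, and the rest of the order was the same, from Akt2 at 29.3 ± 1.96 to Irs1 at 6.35 ± 0.627. There the libraries of neighbours overlapped except between Akt2 and Akt1 and between Insr and Foxo3. These levels use all annotated exons of a gene. With the longest transcript instead, control F1 values were 55.8 for Akt2, 50.4 for Akt1, 23.3 for Insr and 21.3 for Pik3r1, in the same order as before. In FR F1 livers that scale put Pik3r1, at 13.3, above Foxo3, at 12.6, so the place of these 2 genes depends on the length used.

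**Figure D1:**
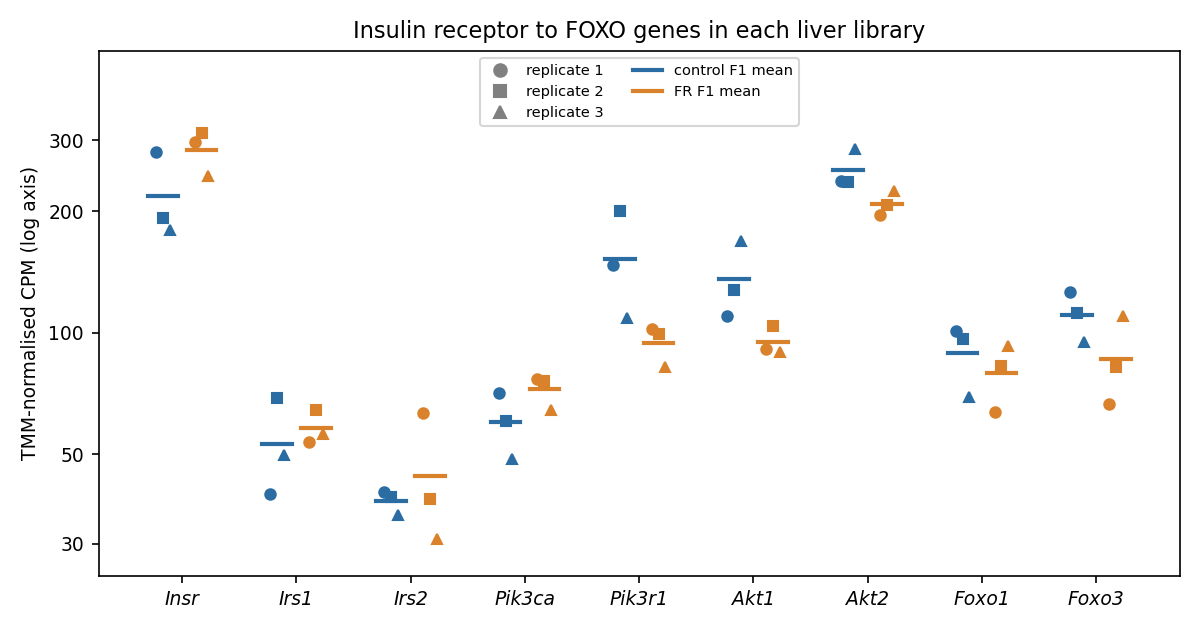
TMM-normalised CPM of the 9 genes on a log axis, with 1 point per library (shape gives the replicate number) and a bar for each group mean, blue for control F1 and orange for FR F1 (n = 3 each). For Pik3r1, Akt1 and Akt2 every FR F1 point lies below every control F1 point, and for the other 6 genes the points overlap.

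The receptor gene Insr (ENSMUSG00000005534.10, chromosome 8, 3122061 to 3279617, mm10) had 281, 193 and 180 TMM-normalised CPM in control F1 replicates 1, 2 and 3, and 297, 312 and 244 CPM in FR F1 replicates 1, 2 and 3. Control replicate 1 lay among the FR F1 libraries, and the other 2 controls were lowest. The group means were 218 ± 55.1 and 284 ± 36 CPM, a log2 fold change of 0.38 ± 0.19 (SE, 95% interval -0.05 to 0.81, edgeR adjusted p = 0.322). With 1 library left out, the lowest log2 fold change was 0.26, without control replicate 3 (edgeR adjusted p = 0.526). The highest was 0.61, without control replicate 1 (edgeR adjusted p = 0.0571). That last fit called 651 genes in all, beside 109 with all libraries. The data thus leave room for a level in FR F1 livers between 0.967 and 1.76 times that of controls.

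The substrate gene Irs1 (ENSMUSG00000055980.2, chromosome 1, 82233101 to 82291416) had 39.9, 69 and 49.9 CPM in control F1 and 53.5, 64.5 and 56.2 CPM in FR F1 libraries. Every FR F1 library lay inside the control range. Its log2 fold change was 0.14 ± 0.22 (95% interval -0.37 to 0.64, edgeR adjusted p = 0.761). Leaving out control replicate 1 turned its sign, at -0.03, and leaving out control replicate 2 gave 0.37. Irs1 shares 2822 of its 9144 exonic base pairs with the gene model Gm9747 on the other strand, which had 82 to 141 counts in a library and a log2 fold change of 0.23 (edgeR adjusted p = 0.557). Whether strand was used in counting is not stated in the labels, so reads in the shared stretch cannot be assigned to one or the other.

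Irs2 (ENSMUSG00000038894.7, chromosome 8, 10984681 to 11008458), the substrate whose gene FOXO1 and fasting raise in liver, had 40.3, 39.2 and 35.3 CPM in control F1 and 63.2, 38.7 and 30.8 CPM in FR F1 libraries. The control libraries were close together, and the FR F1 libraries held both the highest and the lowest of the 6 values. The coefficient of variation was 6.92% in control F1 and 38.2% in FR F1 libraries, from 75 to 169 counts each, and the difference in spread was not tested. The log2 fold change was 0.21 ± 0.27 (95% interval -0.41 to 0.83, edgeR adjusted p = 0.691), and leaving out FR replicate 1 turned it to -0.13. Irs2 shares 162 of its 6323 exonic base pairs with a transcript on the other strand that had 1 to 7 counts.

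Pik3ca encodes the p110-alpha catalytic subunit of PI3K (ENSMUSG00000027665.13, chromosome 3, 32397671 to 32468486). It had 71.1, 60.4 and 48.7 CPM in control F1 and 77, 75.9 and 64.4 CPM in FR F1 libraries. FR replicate 3 lay among the controls and the other 2 FR F1 libraries above them. The log2 fold change was 0.27 ± 0.18 (95% interval -0.15 to 0.69, edgeR adjusted p = 0.448), and 0.14 without control replicate 3, its lowest library.

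Pik3r1 encodes the p85-alpha regulatory subunit and its shorter forms, which bind the phosphorylated IRS proteins and hold and stabilise the catalytic subunit (ENSMUSG00000041417.15, chromosome 13, 101680563 to 101768217). It had 147, 200 and 109 CPM in control F1 and 102, 99.5 and 82.1 CPM in FR F1 libraries. All FR F1 libraries lay below all controls, with control replicate 3 close to FR replicate 1. From 152 ± 45.6 to 94.7 ± 11 CPM, the log2 fold change was -0.68 ± 0.22 (95% interval -1.19 to -0.16, unadjusted p = 0.0162 and adjusted p = 0.19 with edgeR). It did not pass, although its p was the smallest of the 9. The log2 fold change was -0.43 without control replicate 2, where the adjusted p was 0.435. With no filter on low counts, a fit that tested 30930 genes and called 4.04% of them, Pik3r1 passed (edgeR adjusted p = 0.00737).

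**Figure D2:**
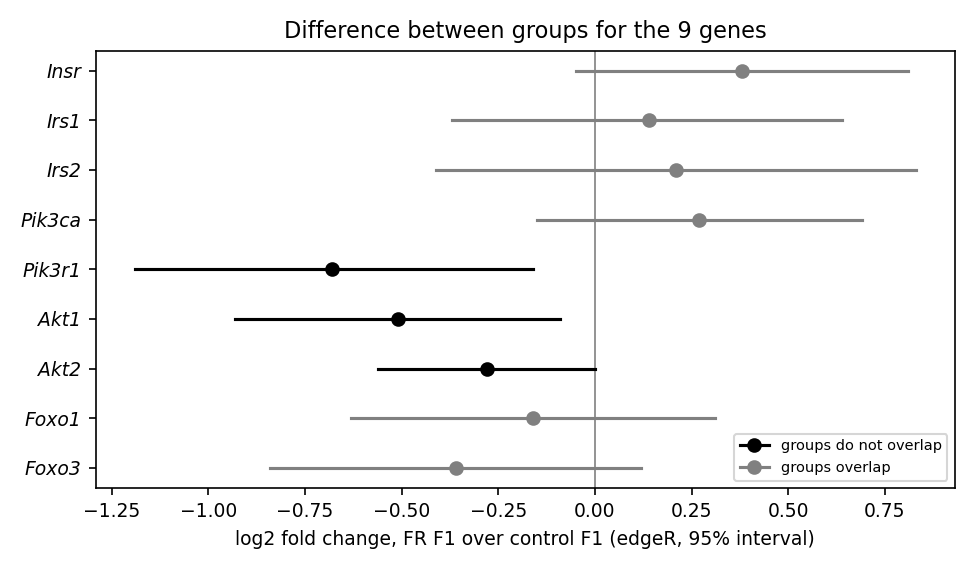
Log2 fold change of FR F1 over control F1 livers for the 9 genes (points, edgeR) with 95% intervals (lines), in black where the 3 libraries of one group do not overlap the 3 of the other. The intervals of Pik3r1 (-1.19 to -0.16) and Akt1 (-0.93 to -0.09) lie below 0, and the other 7 include 0.

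Akt1 (ENSMUSG00000001729.14, chromosome 12, 112653821 to 112674884) encodes a broadly expressed AKT kinase with roles in growth. It had 110, 128 and 169 CPM in control F1 and 91.2, 104 and 89.5 CPM in FR F1 libraries. The groups did not overlap, and FR replicate 2 and control replicate 1 were neighbours. The log2 fold change was -0.51 ± 0.18 (95% interval -0.93 to -0.09, unadjusted p = 0.0222 and adjusted p = 0.211 with edgeR). Without control replicate 3, the highest library, it was -0.33 (edgeR adjusted p = 0.353), and without control replicate 1 it was -0.65 (edgeR adjusted p = 0.0719).

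Akt2 (ENSMUSG00000004056.15, chromosome 7, 27591552 to 27640826) encodes the AKT kinase best known for insulin action on glucose and lipid metabolism in liver. It had 238, 237 and 286 CPM in control F1 and 196, 207 and 224 CPM in FR F1 libraries, again with no overlap. Its log2 fold change, -0.28 ± 0.12, had the smallest standard error of the 9 (95% interval -0.56 to 0.00, edgeR adjusted p = 0.282). A processed pseudogene of Akt2 had 5 counts in all libraries together.

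Foxo1 (ENSMUSG00000044167.6, chromosome 3, 52268336 to 52353221), the main FOXO factor of hepatic glucose production, had 101, 96.5 and 69.4 CPM in control F1 and 63.6, 82.5 and 92.7 CPM in FR F1 libraries. The groups overlapped over most of their range. The log2 fold change was -0.16 ± 0.21 (95% interval -0.63 to 0.31, edgeR adjusted p = 0.694), and it ranged from -0.01 without FR replicate 1 to -0.32 without control replicate 3. An antisense gene model that shares 674 of its 8665 exonic base pairs had at most 4 counts. Foxo3 (ENSMUSG00000048756.11, chromosome 10, 42181841 to 42276755), which acts beside FOXO1 on overlapping targets, had 126, 112 and 94.7 CPM in control F1 and 66.6, 82.2 and 110 CPM in FR F1 libraries. FR replicate 3 lay among the controls and the other 2 FR F1 libraries below them. The log2 fold change was -0.36 ± 0.21 (95% interval -0.84 to 0.12, edgeR adjusted p = 0.386), and it ranged from -0.20 without FR replicate 1 to -0.56 without FR replicate 3.

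Counted together, 0 of the 9 were called by edgeR, also at an adjusted p under 0.10, which 2.47% of tested genes reached. An unadjusted p under 0.05 was found in 2 of the 9 (22.2%), both lower, beside 17.9% of tested genes in either direction and 8.88% lower. There were 0 called by DESeq2 or by limma-voom, which called 2.76% and 0.791% of the genes they tested. The groups did not overlap in 3 of the 9 (33.3%), all lower, beside 25.7% of all tested genes in either direction and 13.2% lower. The median log2 fold change was -0.16 and the median absolute value 0.28, beside 0.00 and 0.27 over all tested genes. The members as a group thus sat close to the background.

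Across the 6 libraries the genes fell into pairs with similar profiles, as measured by the root mean square distance between their log2 CPM after each gene's mean was removed. Insr and Pik3ca were nearest to each other, at 0.11, as were Foxo1 and Foxo3, at 0.15, and Akt1 and Akt2, at 0.18. The similarity of the first pair came from libraries of both groups: both genes were lowest in control replicate 3 and close to their mean in FR replicate 3. Both FOXO genes were highest in control replicate 1 and lowest in FR replicate 1. Both AKT genes were highest in control replicate 3, at 0.59 and 0.32 above their means. Irs1, Irs2 and Pik3r1 had no neighbour this close, with nearest distances of 0.34, 0.27 and 0.38. For Pik3r1, the nearest genes outside the members were Zpr1, Snrpn and Frrs1, at 0.11, 0.12 and 0.13. Only tested genes with a mean of at least 1 CPM and no clone or model name were searched. These distances are descriptions over 6 libraries that share their depth and scaling. No background of distances between other genes was taken, so the pairs are not shown to be unusually close.

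**Figure D3:**
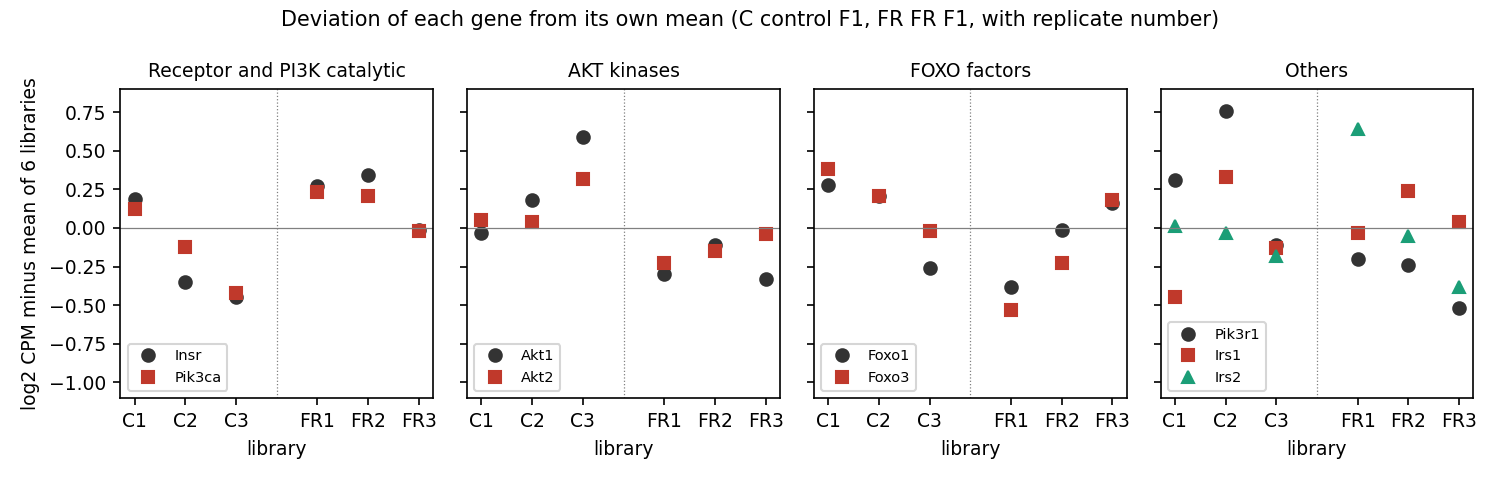
Log2 CPM of each gene minus its own mean over the 6 libraries, with control F1 replicates 1 to 3 on the left and FR F1 replicates 1 to 3 on the right of each panel. Insr with Pik3ca, Akt1 with Akt2 and Foxo1 with Foxo3 lie close together in most libraries, while Pik3r1, Irs1 and Irs2 each go their own way, with Pik3r1 at 0.76 in control replicate 2 and Irs2 at 0.64 in FR replicate 1.

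Ratios of counts within a library do not depend on the scaling between libraries, and 5 were compared by a two-sided exact permutation test, whose smallest possible p with 3 against 3 libraries is 0.1. Pik3r1 over Pik3ca, the regulatory over the catalytic PI3K subunit, was 2.06, 3.31 and 2.24 in control F1 and 1.33, 1.31 and 1.27 in FR F1 libraries. This was the single ratio of the 5 whose groups did not overlap, and the 3 FR F1 values were nearly equal. Of single tested genes 25.7% did not overlap, and no background of other ratios was taken. Pik3r1 alone also did not overlap, so the ratio is not a result separate from that gene. The log2 ratio differed by -0.93 ± 0.21 (SE, exact permutation p = 0.1, adjusted over the 5 ratios 0.5, lower in 3 of 3 FR F1 libraries), and by -0.72 without control replicate 2. The ratio is of counts, not corrected for length, so only its difference between libraries is read.

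Foxo1 over Foxo3 was 0.803, 0.863 and 0.733 in control F1 and 0.955, 1 and 0.846 in FR F1 libraries, a difference in log2 of 0.23 ± 0.10 (exact permutation p = 0.2, adjusted 0.5). Akt1 over Akt2 was 0.463, 0.538 and 0.591 in control F1 and 0.465, 0.503 and 0.399 in FR F1 libraries, a difference of -0.22 ± 0.14 (exact permutation p = 0.3, adjusted 0.5). Both pairs of paralogs overlapped between groups. Irs2 over Irs1 spanned 0.569 to 1.01 and 0.547 to 1.18, with a difference of -0.02 ± 0.43 (exact permutation p = 0.9, adjusted 0.9). In both groups this substrate ratio was highest in replicate 1. Insr over the gene of the related IGF1 receptor, Igf1r, was between 24.2 and 47.7 in all 6 libraries, with a difference of -0.26 ± 0.33 (exact permutation p = 0.4, adjusted 0.5).

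**Figure D4:**
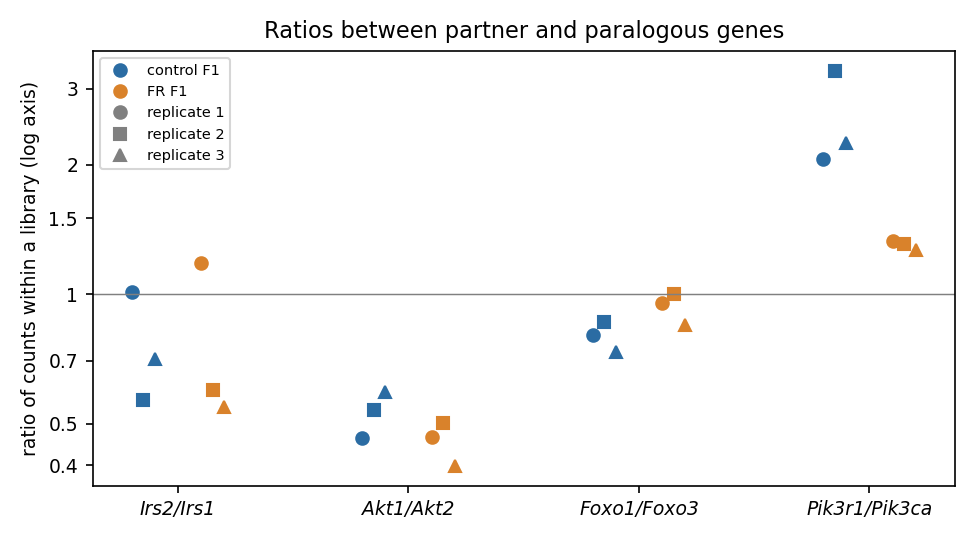
Ratio of counts within each library for 4 gene pairs on a log axis, where blue points are control F1, orange points are FR F1 and the shape gives the replicate number. The FR F1 points of Pik3r1/Pik3ca lie between 1.27 and 1.33, below the control F1 points at 2.06 to 3.31, and the other pairs overlap.

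Beside the 9 genes, 75 other genes of the pathway in 9 lists by role were examined, of which 64 had enough counts to be tested. In these lists 1 gene was lower in FR F1 livers, Srebf1, 0 were higher and 63 did not pass (edgeR), beside 0.445% of all tested genes called lower and 0.392% higher, and 9 had an unadjusted p under 0.05, 2 of them higher and 7 lower. The 9 are 14.1% of the 64, beside 17.9% of all tested genes. The median log2 fold change was 0.09, and the groups did not overlap in 12 of the 64 (18.8%), beside 25.7% of all tested genes. The number called depended on single libraries. It was 6 without control replicate 1 (Cited2, Igfbp1, Mtor, Pde3b, Sirt1 and Srebf1), and 0 without control replicate 2 or any one of the FR F1 libraries.

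Upstream, the insulin genes Ins1 and Ins2 had 0 counts in every library, and the orphan receptor gene Insrr had 4 in all. Igf1r had 6.94, 4.06 and 7.29 CPM in control F1 and 8.6, 12.9 and 7.39 CPM in FR F1 libraries, groups that came close without overlap, with a log2 fold change of 0.65 ± 0.37 (edgeR adjusted p = 0.379). It was 0.43 without control replicate 2 and 0.38 without FR replicate 2. Ceacam1, which promotes insulin clearance by hepatocytes, had 0.16 ± 0.15 (adjusted p = 0.58), and 0.01 without control replicate 3. Among 6 tested adaptor genes 0 passed. Sh2b1, an adaptor that binds the activated receptor, had 163, 187 and 194 CPM in control F1 and 134, 118 and 146 CPM in FR F1 libraries, with a log2 fold change of -0.45 ± 0.14 (edgeR adjusted p = 0.165). Sos1, the exchange factor that leads to RAS, had 0.52 ± 0.27 (adjusted p = 0.341), and 0.25 without control replicate 3. Irs3 and Irs4 had 11 and 1 counts in all libraries together, so Irs1 and Irs2 held nearly all substrate counts.

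Of the other PI3K subunit genes, 3 were tested and 0 passed. Pik3r2, which encodes the p85-beta regulatory subunit, had 95.8, 101 and 112 CPM in control F1 and 87.1, 70.8 and 73.4 CPM in FR F1 libraries (log2 fold change -0.42 ± 0.15, edgeR adjusted p = 0.213). The FR F1 libraries lay below the controls, as for Pik3r1. Pik3cb, the p110-beta catalytic subunit gene, had -0.42 ± 0.20 (adjusted p = 0.298, and -0.27 without FR replicate 3), also without overlap, while Pik3ca had a positive value.

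Of the 6 genes of AKT kinases and their activators 0 passed. Mtor encodes the kinase shared by mTORC1 and the AKT-phosphorylating mTORC2. It had 105, 128 and 151 CPM in control F1 and 89.7, 85.9 and 70.6 CPM in FR F1 libraries. The log2 fold change was -0.64 ± 0.18 (edgeR adjusted p = 0.139). With 1 library left out, the edgeR adjusted p was 0.046 without control replicate 1 and 0.21 to 0.333 otherwise. Mapkap1, an mTORC2 subunit gene, had -0.46 ± 0.20 (adjusted p = 0.284), and -0.29 without FR replicate 1. Among 13 genes of AKT substrates and mTORC1, 0 passed. The glycogen synthase kinase gene Gsk3a had 159, 169 and 168 CPM in control F1 and 136, 130 and 133 CPM in FR F1 libraries, a log2 fold change of -0.31 ± 0.11 (edgeR adjusted p = 0.214). Tsc1, a subunit gene of the complex that restrains mTORC1, had 0.32 ± 0.14 (adjusted p = 0.288). Libraries within each group were close together for Gsk3a, and the groups did not overlap for Mtor, Gsk3a or Tsc1.

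Of 12 tested inhibitor genes 0 passed, and in none did the groups separate, beside 25.7% of all tested genes in which they did. Trib3, a pseudokinase gene that can restrain AKT, had 113, 77.5 and 64.1 CPM in control F1 and 26.2, 41.6 and 64.4 CPM in FR F1 libraries (log2 fold change -0.95 ± 0.34, edgeR adjusted p = 0.213). FR replicate 3 and control replicate 3 were nearly equal for Trib3, and the other 2 FR F1 libraries were the lowest. Among 7 tested FOXO relatives and regulators 0 passed. Sirt1, a deacetylase gene acting on FOXO factors, had 0.76 ± 0.37 (adjusted p = 0.32), in a range from 0.48 without control replicate 3 (adjusted p = 0.514) to 1.35 without control replicate 1 (adjusted p = 0.0288). Ywhaz, which encodes a 14-3-3 protein that binds phosphorylated FOXO, had 0.23 ± 0.17 (adjusted p = 0.48), and 0.09 without control replicate 3.

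Genes that FOXO1 is known to raise in liver had values of both signs. Of 12 tested, 8 were above 0 on the log2 scale and 4 below, the median was 0.09, and 0 passed (edgeR). An unadjusted p under 0.05 was found for 3 (25%), beside 17.9% of all tested genes. Cited2, a transcriptional co-regulator gene, had 33.4, 40.6 and 26.5 CPM in control F1 and 63.6, 64.9 and 75.5 CPM in FR F1 libraries. Its log2 fold change was 1.02 ± 0.20 (edgeR adjusted p = 0.0688, DESeq2 adjusted p = 0.0059). With 1 library left out, the edgeR adjusted p ranged from 0.048 without control replicate 1 to 0.217 without FR replicate 2. Pck1, the gluconeogenic enzyme gene, had lower values in FR F1 livers, with 1001, 1016 and 913 CPM in control F1 and 584, 657 and 769 CPM in FR F1 libraries (-0.54 ± 0.11, edgeR adjusted p = 0.0804). In both genes the groups did not overlap, as in 25.7% of all tested genes. Whether counts as high as those of Pck1 follow RNA levels was not tested.

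Pdk4 and Igfbp1 of the same list were chosen for naming after their values were seen. Pdk4, which encodes a kinase that shuts off pyruvate dehydrogenase in fasting, had 1.3, 7.21 and 0.767 CPM in control F1 and 35.1, 25.4 and 14 CPM in FR F1 libraries. This was the largest difference among the pathway genes tested. The log2 fold change was 3.03 ± 0.69 (edgeR adjusted p = 0.0955, DESeq2 adjusted p = 0.00108). Control replicates 1 and 3 held only a few counts, so Pdk4 met the filter on low counts through its FR F1 libraries. Its log2 fold change ranged from 2.54 without control replicate 3 to 4.54 without control replicate 2. Without FR replicate 1 the edgeR adjusted p was 0.32. Igfbp1 had 63.7, 8.56 and 18.8 CPM in control F1 and 76.7, 32.1 and 63.6 CPM in FR F1 libraries. The spread among its controls was wide, and its log2 fold change was 0.92 ± 0.63 (edgeR adjusted p = 0.459). It ranged from 0.48 without control replicate 2 (adjusted p = 0.715) to 2.05 without control replicate 1 (adjusted p = 0.0481). In the same libraries 4 of 12 circadian clock genes passed, beside 0.837% of all tested genes. Arntl and Npas2 were higher, and Per2 and Per3 lower. Npas2 had 1.3, 1.35 and 1.92 CPM in control F1 and 20.6, 22.5 and 7.39 CPM in FR F1 libraries. Like Pdk4, it met the filter on low counts through its FR F1 libraries. The groups did not overlap in 11 of the 12 (91.7%), beside 25.7% of all tested genes. The part of the clock genes in the values of the pathway genes was not tested.

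Srebf1, the gene of the lipogenic factor SREBP-1 that insulin raises, had 488, 442 and 614 CPM in control F1 and 288, 252 and 297 CPM in FR F1 libraries. It fell by 0.88 ± 0.14 on the log2 scale (edgeR adjusted p = 0.0404). The adjusted p was 0.101 when control replicate 2 was left out and 0.174, 0.19 and 0.118 when FR replicates 1, 2 and 3 were, while the log2 fold change stayed between -0.99 and -0.74 over all settings.

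**Figure D5:**
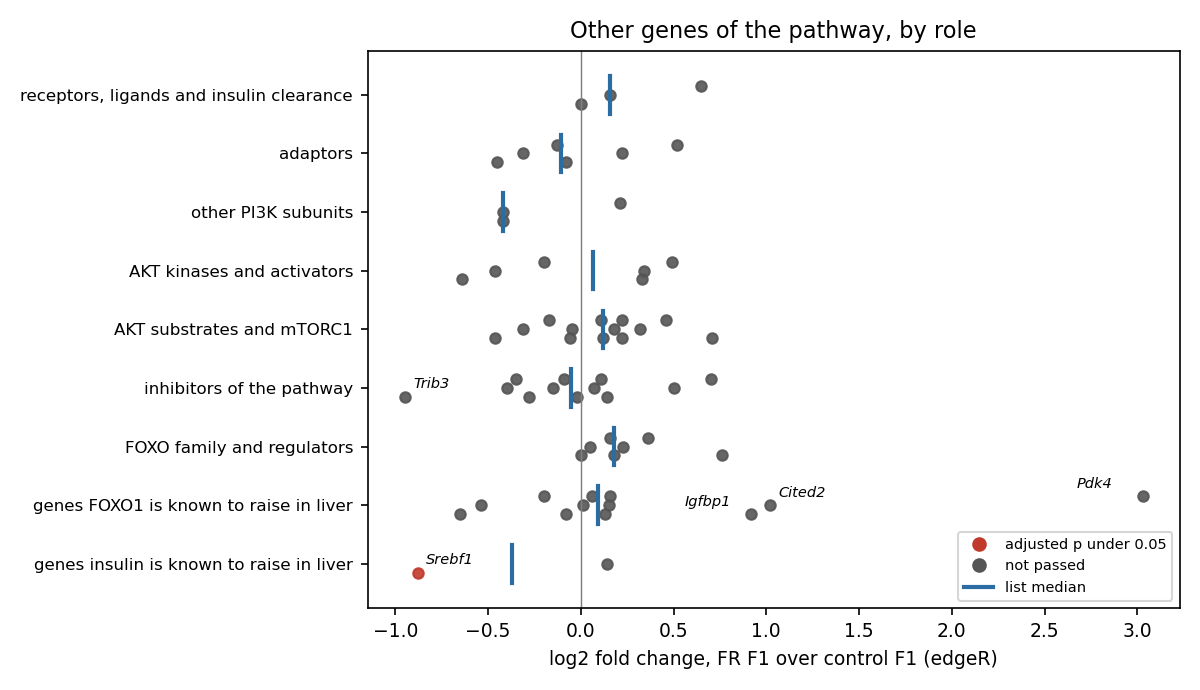
Log2 fold change of FR F1 over control F1 livers (edgeR) for the 64 tested genes of 9 pathway lists, with 1 point per gene, red where the adjusted p was under 0.05, and a blue line at each list's median. Srebf1, at -0.88, is the single red point, and Pdk4, at 3.03, lies farthest from 0.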

How the data were processed

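Polyadenylated liver RNA was sequenced as 6 libraries, 3 per group, with groups and replicate numbers taken from the titles. The authors deposited whole-number counts per gene. STAR, StringTie, HTSeq, DESeq2 and mm10 are named in the submitters' processing notes without roles. No label or header gives the annotation, the strand setting or how shared reads were counted. Columns were matched to samples through the code in each description. Of 53715 gene IDs, 53620 matched a symbol (GENCODE M21, mm10).

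The test used edgeR 4.0.16 (R 4.3.3) on raw counts: filterByExpr (minimum count 10, minimum total 15), TMM factors and quasi-likelihood F tests over 13022 genes, two-sided. The standard error is the absolute log2 fold change divided by the square root of F. Marker sums use CPM of library totals. The coefficient of variation between replicates beyond counting error was 22.4%. Among the 9 genes at most 0.16 counts per base pair of the longest transcript were reached (Akt1 and Akt2), beside at most 1.16 among protein-coding genes. Replicate pairs differed beyond counting noise (chi-square per degree of freedom 4.01 to 13.4), so none was 1 library split in 2. Separate libraries made from 1 animal could not be recognised this way. On simulated data, 43 of 100 genes changed 2-fold and 98 of 100 changed 4-fold were recovered among 13022, with 9 false calls.

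The members and lists were chosen with earlier results of these data known. Named genes were all 9 members, and from each list those past the threshold or the 2 of smallest p, with the 3 genes nearest to the member of smallest p. Genes named outside that rule are said to be, apart from list members named only for their counts or among calls. Alternatives were DESeq2 1.42.0, limma-voom (limma 3.58.1), other scalings and filters, robust dispersion, a replicate block, a threshold of 0.10 and each library left out. Results of some genes of the lists are not reported here.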

Additional observations from a re-analysis of the deposited data

How the results depend on the processing

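Of 135 values of the 9 genes over 15 alternatives, 132 kept their direction and their side of the threshold. With 1 library left out, Irs1 ranged from -0.03 (without control replicate 1) to 0.37 and Irs2 from -0.13 (without FR replicate 1) to 0.42, each turning sign in that 1 fit. With no filter on low counts, 1 of the 9 was called (Pik3r1, lower), 9 of the other pathway genes and 1251 genes in all, and the cause was not tested. DESeq2 called 3 other pathway genes (Cited2, Pdk4 and Srebf1) and 423 genes in all. At an adjusted p under 0.10 there were 0 of the 9, 4 other pathway genes and 322 genes in all. With the replicate number as a block, 0 of the 9, 0 other pathway genes and 21 genes were called. Same-numbered libraries deviated from their group means with correlations across genes of -0.0173, 0.108 and 0.153, and not every library correlated best with its own number, so the numbers are not read as pairs. Leaving out 1 library gave 0 calls among the 9 each time, 0 to 6 among the other pathway genes and 7 to 651 in all. In simulated data 43 of 100 genes changed 2-fold were recovered, so a gene that did not pass is not shown to be equal in both groups.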
